A study of Mus musculus with 6 samples.

Results

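The 10 regulators of the hindlimb field and the ventral caudal mesoderm followed here in RNA-seq of mouse tailbuds were Isl1, Tbx4, Pitx1, Hand1, Hand2, Foxf1, Tbx2, Tbx3, Gata6 and Fgf10. They were taken by gene symbol, 10 of the 54134 genes in the count table, and all 10 were found. The study asked what happens when the nuclear receptor gene Nr6a1, which is normally cleared from the tailbud as trunk formation gives way to tail formation, is kept active there. Tailbuds were collected at E10.5 from C57BL/6 embryos as the tissue behind the last somite, with 1 library per sample. Of the libraries, 4 came from wildtype embryos, which are the embryos of the pronuclear injections that carried no transgene. The other 2 came from Cdx2P:Nr6a1 embryos, in which Cdx2 regulatory elements drive Nr6a1. Transgenic embryos made by pronuclear injection are separate integration events, so the 2 Cdx2P:Nr6a1 libraries need not share a copy number or an insertion site. Replicate numbers were taken as names of the libraries in the main fit, without pairing.

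The hindlimb and the ventral body wall arise from lateral plate mesoderm, which is laid down beside the axis until the trunk ends at the level of the hindlimb and cloaca. Isl1, Pitx1 and Tbx4 are transcription factors that set up the hindlimb field, and Fgf10 is the secreted signal by which limb mesenchyme induces the overlying ectodermal ridge. Hand1, Hand2, Foxf1 and Gata6 are transcription factors of lateral plate and visceral mesoderm, while Tbx2 and Tbx3 are T-box repressors used in limb, body wall and other tissues.

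Between 44073460 and 67183802 reads were counted per library, and levels are given as CPM, the reads of a gene scaled to the total of its library. Nr6a1, the overexpressed gene, stood at 3.91 to 6.89 CPM in the wildtype libraries and at 23.4 and 33.8 CPM in Cdx2P:Nr6a1 replicates 1 and 2, as labelled. Its log2 fold change was 2.41 ± 0.20 (SE, adjusted p = 0.00132 by the quasi-likelihood test of edgeR). The tailbud markers T, the Brachyury gene of axial progenitors, and Cdx2, a caudal homeobox gene, were the most abundant of their list, at 975 to 1189 and 286 to 303 CPM in wildtype. Cdx2P:Nr6a1 replicate 2 stood apart from the other libraries. It held 73 genes with at least 20 counts and at least 2-fold above each of the other 5 libraries, against 10 to 47 such genes in each of those 5. Replicate 2 was also the deepest library, at 67183802 reads, so 20 counts correspond to the lowest CPM there. Isl1, Tbx4, Hand2 and Foxf1 were among the 73, and no member was among the genes that set any other library apart.

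Most of these regulators were close to the detection limit in tailbuds of both genotypes. Of the 10, 9 stayed at or under 2.5 CPM in every library, and 6 were under 1 CPM in every wildtype library. Compared per length of exon, as RPKM, Tbx3 was the highest in wildtype at 1.79 ± 0.315 (SD, n = 4), and its range of 1.58 to 2.26 lay above that of every other member. Pitx1 followed at 0.706 ± 0.199 RPKM and Hand1 at 0.474 ± 0.141 RPKM, with overlapping ranges. Fgf10 was next at 0.255 ± 0.0683 RPKM, apart from Hand1 above it and from Tbx2 below it. The remaining 6 members lay between 0.109 RPKM for Tbx2 and 0.0288 RPKM for Isl1, and each overlapped its neighbour in the order. Tbx3 itself was a gene of modest level, since 26.6% of the tested genes had a lower mean wildtype CPM.

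**Figure D1:**
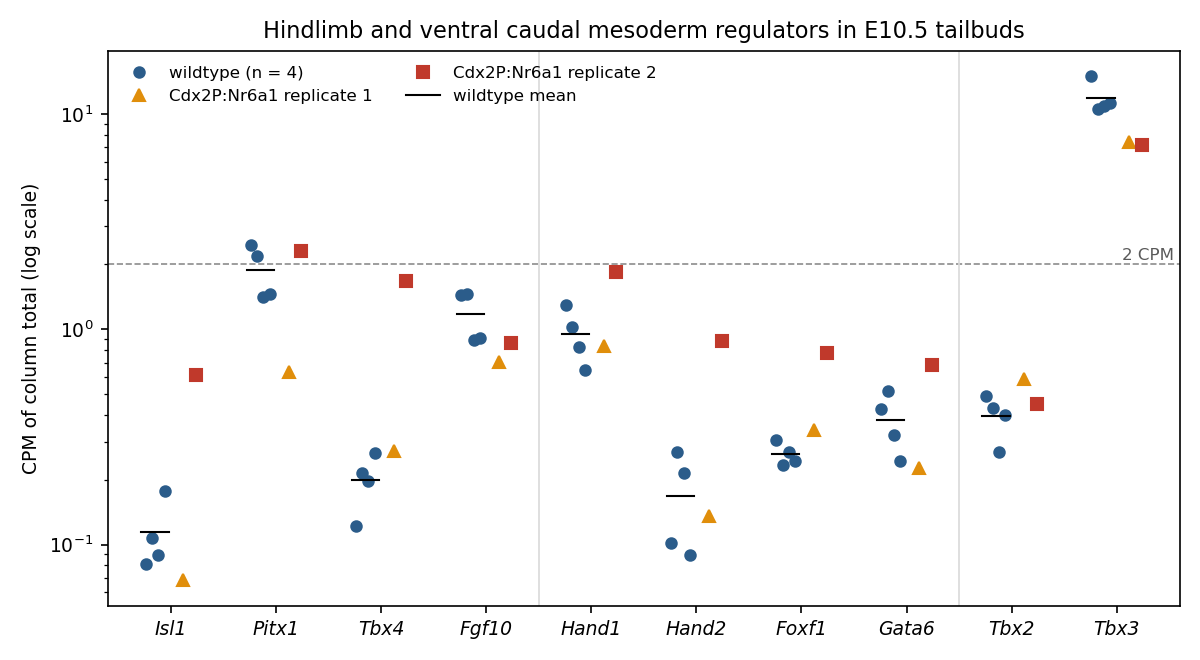
CPM of each of the 10 genes (log axis) in every library, with 4 wildtype libraries as circles, their mean as a bar, Cdx2P:Nr6a1 replicate 1 as a triangle and replicate 2 as a square. Both Cdx2P:Nr6a1 libraries lie under all wildtype libraries for Tbx3, whereas replicate 2 alone is well above the rest for Isl1, Tbx4 and Hand2.

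To be tested, a gene had to exceed 10 counts and 2 CPM in 2 or more libraries, a rule taken from the methods. Only Tbx3 and Pitx1 met this filter, and the other 8 members did not. None of the 10 was called at an adjusted p under 0.05 in edgeR's quasi-likelihood test, in which 1.59% of the 12733 tested genes were called, 0.785% higher and 0.809% lower. At an unadjusted p under 0.05 there was 1 member, Tbx3, among 1342 of the 12733 genes. The likelihood ratio test of edgeR (3.15% of tested genes called) and DESeq2 (3.75%) called 1 member each, again Tbx3. So that the other 8 members could be described, a second fit took all 32579 genes with any count. It called 2.69% of them, and among the members it called 3 in the higher direction (1.56% of all genes) and 1 in the lower (1.13%). The 3 were Tbx4, Hand2 and Isl1, and the 1 was Tbx3. Without the filter, the likelihood ratio test called 2 members (1.23% of all genes), limma voom called 0 (0.626%), and DESeq2 called 2 (2.65% of the 19304 genes to which it gave an adjusted p). The fold changes below come from the filtered fit for Tbx3 and Pitx1 and from the fit without a filter for the others. For these 2 members the fit without a filter gave smaller standard errors, 0.22 against 0.44 for Pitx1 and 0.13 against 0.16 for Tbx3. Its p-values may therefore be too small for the others as well. In tissue of this kind, fewer cells of a type and less RNA per cell cannot be told apart.

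Among the genes that initiate the hindlimb, Tbx4 had the largest difference. Tbx4 encodes the T-box factor of hindlimb outgrowth and lies on chr11:85886422-85916097 (plus strand), and all gene coordinates are those of GRCm38. Its level was 0.122, 0.215, 0.197 and 0.267 CPM in wildtype replicates 1 to 4, against 0.272 and 1.68 CPM in Cdx2P:Nr6a1 replicates 1 and 2. The groups did not overlap, as for 8.44% of all genes in the higher direction, but replicate 1 was barely above the highest wildtype library, with 12 counts (95% Poisson interval 0.141 to 0.476 CPM). Replicate 2 held 113 counts (1.39 to 2.02 CPM). The log2 fold change was 2.33 ± 0.35 (SE, adjusted p = 8.32e-09 by the quasi-likelihood test of edgeR without a filter). The call was lost without Cdx2P:Nr6a1 replicate 2, where the log2 fold change was 0.42 ± 0.61 (SE, adjusted p = 0.847), and it was also lost with limma voom (1.95, adjusted p = 0.371) and with the filterByExpr filter (2.32, adjusted p = 0.116). Poisson intervals cover counting error only.

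Isl1, a LIM homeobox gene that acts upstream of hindlimb outgrowth and also marks motor neurons and pharyngeal and cardiac progenitors, lies on chr13:116298281-116309689 (minus strand). It had 4, 6, 5 and 8 counts in the wildtype libraries, which is 0.0814, 0.107, 0.0894 and 0.178 CPM. Cdx2P:Nr6a1 replicate 1 was the lowest of the 6 libraries at 3 counts (0.0681 CPM), and replicate 2 the highest at 41 counts (0.610 CPM). The groups therefore overlapped, and the 2 Cdx2P:Nr6a1 libraries lay on opposite sides of the wildtype range. The fit without a filter gave a log2 fold change of 1.65 ± 0.50 (SE, adjusted p = 0.0376). It became -0.73 ± 0.97 (SE, adjusted p = 0.847) without replicate 2, and the call was lost with the likelihood ratio test (adjusted p = 0.438), DESeq2 (0.716) and limma voom (0.859). It was also lost without wildtype replicate 1, 2 or 3 (adjusted p = 0.0624, 0.0873 and 0.0998).

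Pitx1, a homeobox gene of hindlimb identity on chr13:55825051-55836192 (minus strand), differed 3.65-fold between the 2 Cdx2P:Nr6a1 libraries. It stood at 2.46, 2.18, 1.41 and 1.45 CPM in wildtype, 0.635 CPM in Cdx2P:Nr6a1 replicate 1 and 2.32 CPM in replicate 2. Replicate 1 was under all wildtype libraries and replicate 2 within their range. The log2 fold change was -0.29 ± 0.44 (SE, adjusted p = 0.914 by the quasi-likelihood test of edgeR), with -1.57 (adjusted p = 0.234) without replicate 2 and 0.31 (adjusted p = 0.999) without replicate 1.

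Fgf10, on chr13:118669791-118792115 (plus strand), was measured at 1.44, 1.45, 0.894 and 0.912 CPM in wildtype and at 0.703 and 0.863 CPM in Cdx2P:Nr6a1. Both Cdx2P:Nr6a1 libraries were under all wildtype libraries, as 5.61% of all genes were, but the gap to the nearest wildtype library was small. Its log2 fold change of -0.58 ± 0.28 (SE) was not called (adjusted p = 0.501 by the quasi-likelihood test of edgeR without a filter). The sign was the same without either Cdx2P:Nr6a1 library, at -0.44 and -0.76.

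Of the lateral plate genes, Hand2 was called without a filter. Hand2 is a basic helix-loop-helix gene of limb bud, heart and branchial arch mesenchyme on chr8:57320983-57324633 (plus strand). Its wildtype levels were 0.102, 0.269, 0.215 and 0.0890 CPM, from 4 to 15 counts. Cdx2P:Nr6a1 replicate 1 lay within this range at 0.136 CPM (6 counts), whereas replicate 2 was above every library at 0.878 CPM (59 counts). The log2 fold change was 1.61 ± 0.42 (SE, adjusted p = 0.00637 by the quasi-likelihood test of edgeR), and it was -0.35 ± 0.79 (SE, adjusted p = 0.872) without replicate 2. The Hand2 call was also lost with the likelihood ratio test (adjusted p = 0.396), DESeq2 (0.530), limma voom (0.729) and the filterByExpr filter (0.421). Hand2 shares 461 of its exon bases (19.6%) with AV026068, an overlapping gene that stood at 0 to 0.143 CPM in wildtype and at 0.136 and 0.566 CPM in Cdx2P:Nr6a1. How strand was used in the counting is not given in the sources used here, so reads in the shared bases cannot be assigned to one gene with certainty.

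Foxf1, the forkhead gene of splanchnic mesoderm on chr8:121084386-121088144 (plus strand), was the other member whose groups did not overlap in the higher direction. It was even in wildtype, at 0.305, 0.233, 0.268 and 0.245 CPM, and reached 0.340 and 0.774 CPM in Cdx2P:Nr6a1 replicates 1 and 2. The replicate 1 value rested on 15 counts, as many as in wildtype replicates 1 and 3. The log2 fold change of 1.11 ± 0.39 (SE) was not called (adjusted p = 0.125 by the quasi-likelihood test of edgeR without a filter), and it was 0.35 without replicate 2. Fendrr, the noncoding RNA gene beside Foxf1, stood at 0.0358 to 0.0536 CPM in wildtype and at 0.159 and 0.238 CPM in Cdx2P:Nr6a1.

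Hand1 and Gata6 shared the high value of replicate 2 without groups that separated. Hand1, on chr11:57828705-57832818 (minus strand), ranged from 0.645 to 1.30 CPM in wildtype, with 0.840 CPM in Cdx2P:Nr6a1 replicate 1 and 1.85 CPM in replicate 2. Gata6, on chr18:11052508-11085635 (plus strand), ranged from 0.245 to 0.519 CPM in wildtype, with 0.227 CPM in replicate 1 and 0.685 CPM in replicate 2. Their log2 fold changes of 0.52 (adjusted p = 0.541) and 0.31 (adjusted p = 0.880) did not reach the threshold in the quasi-likelihood test. Without replicate 2 both were negative, at -0.20 for Hand1 and -0.76 for Gata6.

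Tbx3 was the member with the clearest difference in the lower direction, of about the same size in both Cdx2P:Nr6a1 libraries. Tbx3 lies on chr5:119670669-119684724 (plus strand). Wildtype replicates 1 to 4 gave 14.97, 10.46, 10.89 and 11.19 CPM, and Cdx2P:Nr6a1 replicates 1 and 2 gave 7.442 and 7.159 CPM. The means were 11.9 ± 2.08 (SD, n = 4) and 7.30 ± 0.200 (SD, n = 2) CPM. No Cdx2P:Nr6a1 library reached the lowest wildtype library, which held for 8.48% of the tested genes in the lower direction. With 481 and 328 counts, the 95% Poisson intervals of the Cdx2P:Nr6a1 libraries ended at 7.83 and 8.29 CPM. The log2 fold change was -0.71 ± 0.16 (SE), and its adjusted p of 0.0682 in the quasi-likelihood test of edgeR missed the threshold. An exact permutation test of log2 CPM over the 15 arrangements of the libraries gave a two-sided p of 0.0667, the smallest that this design allows.

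The size of the Tbx3 difference changed little with the processing, whereas the call did. Over 14 alternatives the log2 fold change lay between -0.78 and -0.58 and the adjusted p between 1.2e-05 and 0.306. Of them, 5 called Tbx3, among them the likelihood ratio test, DESeq2, the fit without a filter and the fit without wildtype replicate 1. That library held the highest Tbx3 level, and without it the log2 fold change was -0.58 (adjusted p = 0.0242 by the quasi-likelihood test of edgeR).

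**Figure D2:**
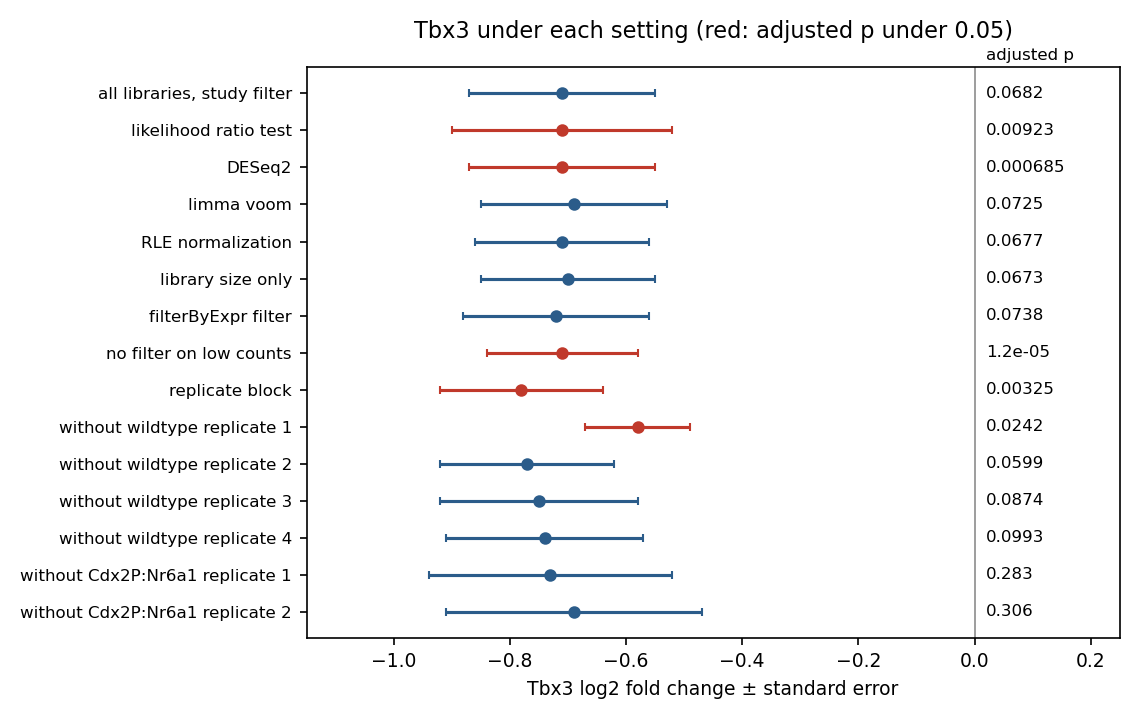
Tbx3 log2 fold change (Cdx2P:Nr6a1 over wildtype) with its standard error under each setting, with the adjusted p at the right and calls at an adjusted p under 0.05 in red. Every point lies between -0.78 and -0.58, and 5 of the 14 alternatives were called.

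The tested genes whose deviations over the 6 libraries were most like those of Tbx3 were Ngfr, Chl1 and Itga8, with root mean square differences of 0.091, 0.096 and 0.107 in log2 CPM. Ngfr, the low-affinity neurotrophin receptor, had a mean of 204 CPM in wildtype and 120 CPM in Cdx2P:Nr6a1 (log2 fold change -0.77, adjusted p = 0.00499 by the quasi-likelihood test of edgeR). Chl1, a cell adhesion molecule, was at 8.80 and 5.66 CPM (adjusted p = 0.0377). Itga8, an integrin subunit of mesenchyme, was at 4.92 and 2.99 CPM (adjusted p = 0.0665). The likeness was the basis on which these 3 genes were picked and carries no test.

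Tbx2, the close relative of Tbx3, was not lower in Cdx2P:Nr6a1. It lies on chr11:85832551-85841948 (plus strand), 44474 bases from Tbx4. It stood at 0.488, 0.430, 0.268 and 0.400 CPM in wildtype and at 0.590 and 0.447 CPM in Cdx2P:Nr6a1, with replicate 1 above all wildtype libraries and replicate 2 within their range. The log2 fold change was 0.37 ± 0.38 (SE, adjusted p = 0.878 by the quasi-likelihood test of edgeR without a filter). Whether the fold changes of Tbx2 and Tbx3 differ was not tested.

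The 2 Cdx2P:Nr6a1 libraries differed from each other at most of the 10 genes. Replicate 2 was above replicate 1 at 8 of them, and it was the highest of all 6 libraries at Isl1, Tbx4, Hand1, Hand2, Foxf1 and Gata6, 6 of 10, against 15.2% of all genes with any count. It was also the highest at 13 of 29 limb bud genes, 10 of 25 ventral and lateral plate mesoderm genes and 5 of 6 endothelial markers. It was the highest at only 1 of 8 tailbud, 0 of 7 spinal motor neuron and 1 of 8 hindgut and cloacal markers. The same held for 1 of 7 surface ectoderm markers and 1 of 6 heart markers. Replicate 1 was under every wildtype library at 5 members (Isl1, Pitx1, Tbx3, Gata6 and Fgf10), against 14.9% of all genes. It was within the wildtype range at 2 and above it at 3. With replicate 2 left out, the quasi-likelihood test without a filter called 0 members (0.627% of all genes called). With replicate 1 left out it called 3 (0.953%), namely Tbx4, Hand2 and Isl1, with log2 fold changes of 3.07, 2.34 and 2.42. In these fits the lone Cdx2P:Nr6a1 library is assumed to vary as the wildtype libraries do.

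**Figure D3:**
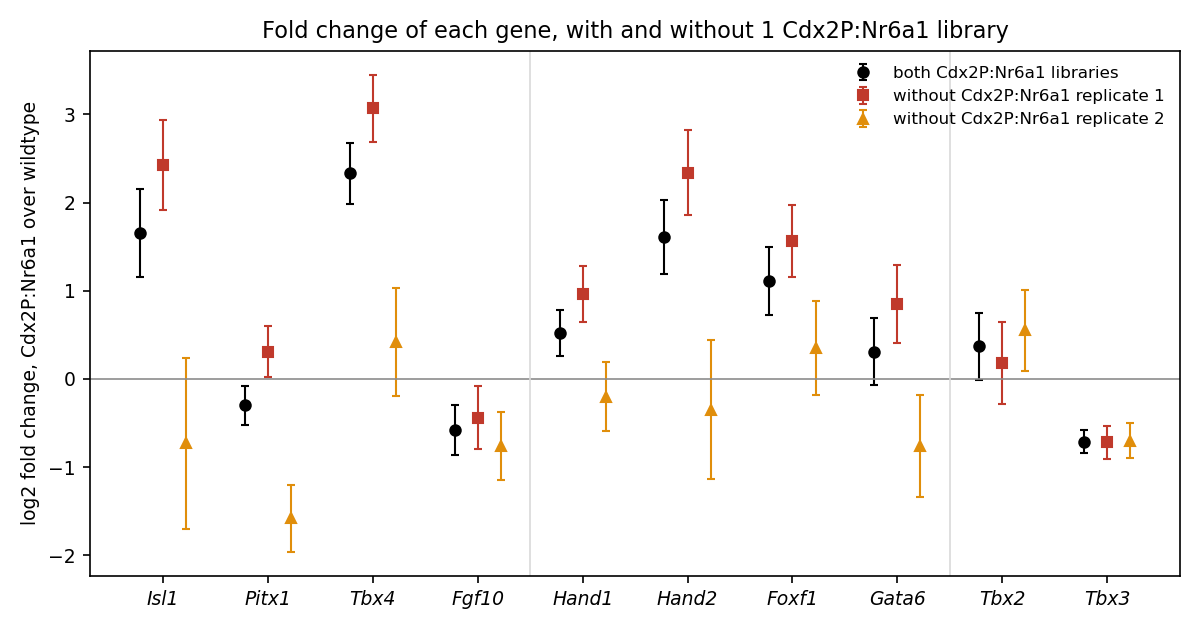
Log2 fold change (Cdx2P:Nr6a1 over wildtype) of each gene with its standard error, from edgeR without a filter on low counts, with both Cdx2P:Nr6a1 libraries and with either left out. Tbx3 keeps its value, while Isl1, Hand1, Hand2, Gata6 and Pitx1 differ in sign according to which library is left out.

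Trophoblast and decidua genes and some macrophage genes were also high in Cdx2P:Nr6a1 replicate 2. A list of 13 trophoblast and decidua genes, written after the values were seen, summed to 0.465 to 2.78 CPM in wildtype, 2.45 CPM in Cdx2P:Nr6a1 replicate 1 and 22.0 CPM in replicate 2. Of the 13, 11 were highest in replicate 2, among them Prl3d1, a placental lactogen gene, at 0 to 1.07 CPM in wildtype and 4.38 CPM in replicate 2. Ctsq was at 0 in all libraries. A macrophage list of 8 genes, also written after the values were seen, summed to 8.36 to 17.3 CPM in wildtype. It summed to 10.2 CPM in replicate 1 and 41.8 CPM in replicate 2, with 6 of 8 genes highest there. Lyz2, the lysozyme gene of myeloid cells, made up 28.7 CPM of this sum, whereas Csf1r, the macrophage growth factor receptor, was within its wildtype range at 6.49 CPM. A list of 8 yolk sac endoderm genes, again written after the values were seen, was instead highest in wildtype replicate 2, at 119 CPM. It summed to 5.17 to 48.0 CPM in the other wildtype libraries, 12.3 CPM in Cdx2P:Nr6a1 replicate 1 and 41.5 CPM in replicate 2. Of its 8 genes, 0 were highest in Cdx2P:Nr6a1 replicate 2. The part of these tissues in the values of Isl1, Tbx4, Hand1, Hand2, Foxf1 and Gata6 was not tested.

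**Figure D4:**
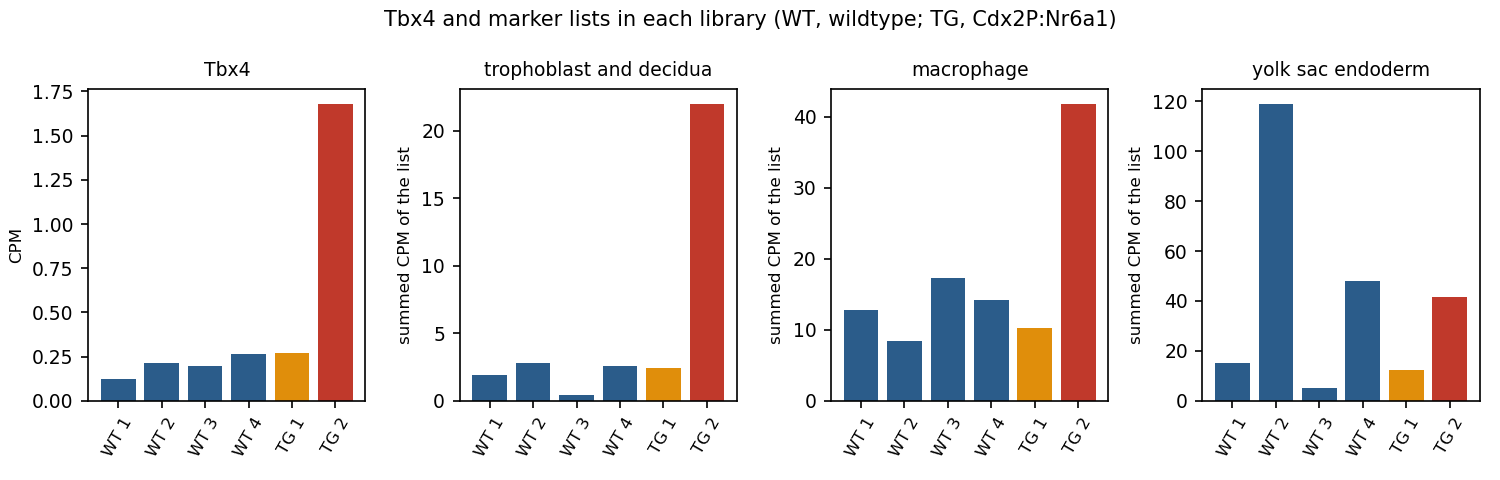
Tbx4 CPM and the summed CPM of trophoblast and decidua, macrophage and yolk sac endoderm genes in each library (WT, wildtype; TG, Cdx2P:Nr6a1; bars start at 0). Tbx4 and the trophoblast and macrophage sums are highest in Cdx2P:Nr6a1 replicate 2, and the yolk sac sum is highest in wildtype replicate 2.

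Markers of other cell types in which the 10 genes are used were summed in the same way. Spinal motor neuron markers, which bear on Isl1, summed to 36.1 to 46.0 CPM in wildtype and 46.4 and 42.8 CPM in Cdx2P:Nr6a1. Nearly all of it came from Mnx1, which is also a tailbud and notochord gene, at 35.6 to 45.2 CPM in wildtype. Isl2, the motor neuron relative of Isl1, stayed at or under 0.376 CPM in every library. The 6 heart markers, which bear on Hand1, Hand2 and Gata6, summed to 2.11 to 3.72 CPM in wildtype and 3.22 and 2.92 CPM in Cdx2P:Nr6a1, and the 2 most abundant were Myl7 and Tnnt2. None of the 6 was abundant enough to be tested. The 6 endothelial markers, led by Cdh5 and Kdr, summed to 181 to 225 CPM in wildtype and 188 and 236 CPM in Cdx2P:Nr6a1, with 0 called and 5 of 6 highest in replicate 2. The 7 markers of surface ectoderm and the ventral ectodermal ridge, led by Wnt6 and Trp63, summed to 112 to 162 CPM in wildtype and 163 and 142 CPM in Cdx2P:Nr6a1, with 0 called. The 8 hindgut and cloacal markers, led by Cldn6 and Cdh1, summed to 417 to 535 CPM in wildtype and 620 and 536 CPM in Cdx2P:Nr6a1. Of these, Krt18, an epithelial keratin, was called higher (log2 fold change 0.37, adjusted p = 0.0264 by the quasi-likelihood test of edgeR). The 8 tailbud markers summed to 2545 to 2873 CPM in wildtype and 2804 and 2579 CPM in Cdx2P:Nr6a1, and Cdx2 was called higher at 0.35 (adjusted p = 0.0340). Of the 8, 4 were higher and 4 lower, and 6 had an unadjusted p under 0.05, as did 1342 of all 12733 tested genes. Without a filter 4 were called higher (1.56% of all genes) and 2 lower (1.13%).

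Promoter sequences of 4 members, Isl1, Tbx4, Hand2 and Fgf10, were held in the RefSeq table for GRCm38.p6. The 250 bases before the annotated start are shown for Isl1, Tbx4 and Hand2, the 3 members that were called higher without a filter and that were high together in Cdx2P:Nr6a1 replicate 2. Capitals mark CCAAT or its reverse complement ATTGG, a common promoter element. The windows are chr13:116309689-116309938 on the minus strand for Isl1, chr11:85896515-85896764 on the plus strand for Tbx4 and chr8:57320733-57320982 on the plus strand for Hand2.
Isl1: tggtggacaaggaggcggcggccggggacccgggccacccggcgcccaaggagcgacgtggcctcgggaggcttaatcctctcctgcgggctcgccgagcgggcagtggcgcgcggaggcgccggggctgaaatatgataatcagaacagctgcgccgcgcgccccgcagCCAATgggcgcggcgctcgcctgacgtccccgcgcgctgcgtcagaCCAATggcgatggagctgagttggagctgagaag
Tbx4: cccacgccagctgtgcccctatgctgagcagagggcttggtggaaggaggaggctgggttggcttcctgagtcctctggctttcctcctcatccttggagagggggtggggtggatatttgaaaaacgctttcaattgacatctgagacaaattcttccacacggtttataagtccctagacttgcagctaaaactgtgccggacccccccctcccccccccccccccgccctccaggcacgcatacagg
Hand2: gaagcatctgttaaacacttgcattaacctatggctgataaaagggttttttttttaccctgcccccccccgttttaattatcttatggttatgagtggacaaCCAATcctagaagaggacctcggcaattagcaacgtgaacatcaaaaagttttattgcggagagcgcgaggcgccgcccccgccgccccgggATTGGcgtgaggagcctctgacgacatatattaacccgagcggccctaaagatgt
The Tbx4 window lies inside the gene as the count table gives it, between exons, and the Hand2 window lies wholly within an exon of AV026068.

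The 3 windows had little in common in their letters. Isl1 and Hand2 each held 2 copies of CCAAT and Tbx4 held 0, while 33.8% of all 250-base windows held at least 1. GC content was 71.2% for Isl1, 58.4% for Tbx4 and 49.2% for Hand2, around a median of 52.4% over all windows, with 33, 6 and 15 CG pairs and a median of 6.00. Nr6a1 is known to bind a direct repeat of the nuclear receptor motif AGGTCA without a spacer, AGGTCAAGGTCA. Searched on both strands over the 250 bases before and 50 after each start, none of the 4 member promoters, Fgf10 included, held AGGTCA, its extended form TCAAGGTCA or the repeat. Of all 32851 promoters, 16.3% held AGGTCA, 0.423% TCAAGGTCA and 0.00609% the repeat, and each longer motif contains the shorter.

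Limb bud genes that passed the filter were mostly abundant and had a median fold change near that of all tested genes. Of 29 genes that work with these regulators in the limb bud, 21 passed the filter and 0 were called (1.59% of all tested genes). Of the 21, 8 were higher and 13 lower in Cdx2P:Nr6a1. Their median log2 fold change was -0.05, beside -0.00 over all tested genes. The limb bud genes under the filter had log2 fold changes of 0.07 to 2.04 in the fit without a filter, at low counts. Of the 21 tested, 4 had an unadjusted p under 0.05, as did 1342 of all 12733 tested genes, and DESeq2 called 1 (3.75% of tested genes). Fgfr1 and Fgfr2 encode the FGF receptors that read Fgf10 and ridge FGF signals. Fgfr1 was under the wildtype range in both Cdx2P:Nr6a1 libraries, with 326 to 351 CPM in wildtype and 269 and 311 CPM in Cdx2P:Nr6a1 (log2 fold change -0.22, adjusted p = 0.188 by the quasi-likelihood test of edgeR). Fgfr2, the receptor whose epithelial isoform binds Fgf10, was above it in both, with 42.7 to 58.1 CPM in wildtype and 60.9 and 64.3 CPM in Cdx2P:Nr6a1 (0.30, adjusted p = 0.267). Etv4, a transcriptional target of FGF signalling, was at -0.18 (adjusted p = 0.341).

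Among limb bud genes under the filter, Prrx1 had levels close to those of Tbx4. Without a filter 4 of the 29 were called (2.69% of all genes), Fgf8, Fgfr2 and Prrx1 higher (1.56%) and Fgfr1 lower (1.13%). Fgf8, Fgfr2 and Fgfr1 passed the filter and were not called in the filtered fit, Fgf8 with an adjusted p of 0.544 in the quasi-likelihood test. Prrx1, a homeobox gene of limb bud mesenchyme, stood at 0.142, 0.233, 0.179 and 0.200 CPM in wildtype, 0.408 CPM in Cdx2P:Nr6a1 replicate 1 and 1.13 CPM in replicate 2 (log2 fold change 2.04, adjusted p = 9.4e-06 by the quasi-likelihood test of edgeR). Tbx5, the forelimb counterpart of Tbx4, was at or under 0.111 CPM in wildtype and at 0.0227 and 0.283 CPM in Cdx2P:Nr6a1, and was not called (adjusted p = 0.473). Prrx1 and Tbx5 were picked after their values were seen.

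**Figure D5:**
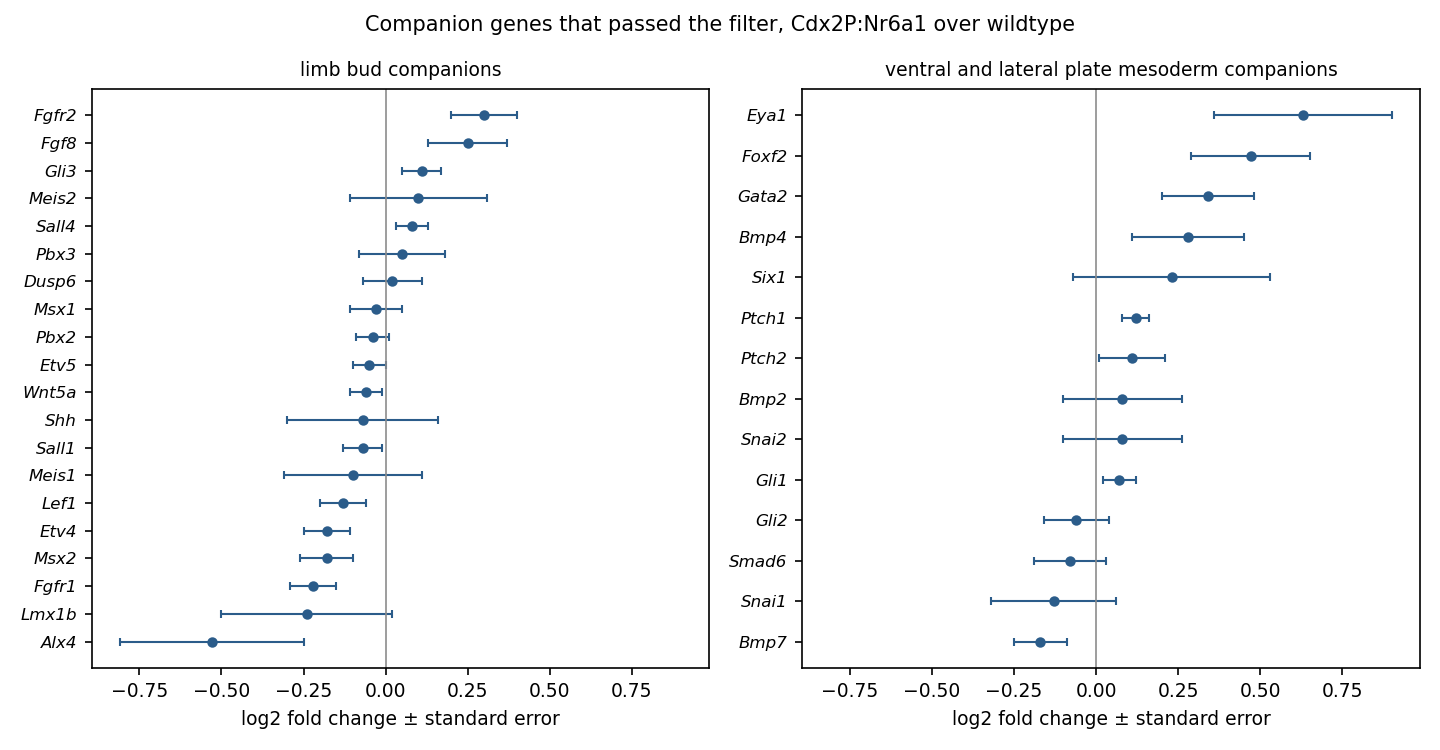
Log2 fold change (Cdx2P:Nr6a1 over wildtype) with its standard error for 20 of the 21 limb bud genes and the 14 ventral and lateral plate mesoderm genes that passed the filter. None was called at an adjusted p under 0.05, and the medians over all 21 and 14 were -0.05 and 0.10.

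Of 25 genes that act beside the members in ventral and lateral plate mesoderm, 14 passed the filter and 0 were called, also with the likelihood ratio test, DESeq2 and limma voom. Of these 10 were higher and 4 lower in Cdx2P:Nr6a1, and the median was 0.10 on the log2 scale. An unadjusted p under 0.05 was found for 4 of the 14 and for 1342 of all 12733 tested genes. Those 4 were Foxf2, the paralogue of Foxf1, at 0.47 (adjusted p = 0.351), Ptch1, the Hedgehog receptor that acts upstream of Foxf1 in gut mesoderm, at 0.12 (adjusted p = 0.359), Gata2 at 0.34 (adjusted p = 0.419) and Eya1 at 0.63 (adjusted p = 0.458), all from edgeR's quasi-likelihood test. Foxf2 stood at 1.56 to 1.82 CPM in wildtype and at 2.68 and 2.16 CPM in Cdx2P:Nr6a1, and unlike Foxf1 it was higher in replicate 1 than in replicate 2. Without a filter 2 of the 25 were called, both higher (1.56% of all genes), Eya1 and Gata5. Eya1 stood at 1.95 to 2.80 CPM in wildtype and at 2.29 and 4.82 CPM in Cdx2P:Nr6a1 replicates 1 and 2. Gata5, a relative of Gata6, stood at 0.107 to 0.163 CPM in wildtype and at 0.182 and 0.670 CPM in Cdx2P:Nr6a1, again highest in replicate 2.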

How the data were processed

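RNA was measured in 6 tailbud libraries, 4 wildtype and 2 Cdx2P:Nr6a1, grouped by the genotype in their labels. Per the labels and the methods, the authors made stranded mRNA libraries, sequenced single-end reads and aligned them with STAR to mm10. They deposited raw counts per gene, with exon coordinates, without normalization, and the counting program is not given in the sources used here. A deposited table of the authors' own comparison of 360 genes (fold change, FDR, average expression, p-value, counts and CPM) was not used. The count table held 0 columns of other samples. The exons of all members but Gata6 were the same as in GENCODE M21 on GRCm38. The members, gene lists and tests were chosen with earlier results of these data known.

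CPM was computed from column totals and RPKM from these totals and the exon length in the table. The counts were tested in R 4.3.3 with edgeR 4.0.16 (TMM, quasi-likelihood test, no covariates, Benjamini-Hochberg adjustment over all tested genes, calls at an adjusted p under 0.05) on the 12733 genes that exceeded 10 counts and 2 CPM in 2 or more libraries. Members under this filter were taken from the fit of all genes with any count. The procedure was checked on simulated counts of genes that passed the filter, so the fit without a filter was not checked in this way. Library totals of 44073460 to 67183802 set the precision of low genes. The 14 alternatives were the likelihood ratio test, DESeq2 1.42.0, voom of limma 3.58.1, RLE normalization, library size only, filterByExpr, no filter, a replicate block, and each library left out in turn. The genes named are the 10 members, Nr6a1, the called genes of each list filled up to 4 by smallest p in the 2 companion lists, the called and 2 most abundant genes and those at 0 in each marker list, and the 3 genes nearest to Tbx3. Of these, 2 genes are not reported here. Genes named outside this rule were picked after their values were seen: AV026068, Fendrr, Prl3d1, Lyz2, Csf1r, Fgf8, Prrx1, Tbx5 and Gata5. The labels do not give litters, and p-values measure only the spread between these samples. Figures were drawn in Python 3.11.15 with matplotlib 3.10.9.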

Additional observations from a re-analysis of the deposited data

Results flagged for a closer look

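In the wildtype group, replicate 1 lay apart from the other 3 libraries, relative to their spread, at 3 of the 44 named genes that were examined. Its Tbx3 level was 14.97 CPM, against 10.46 to 11.19 CPM in the others, and the gap to the nearest was 0.839 of the range of the group. For Ngfr, whose deviations were most like those of Tbx3, it was 234.9 CPM with a gap of 0.873 of the range. For Gata5 it was 0.1627 CPM, with a gap of 0.930 of the range, but this is 8 counts against 6, 6 and 5 in the others, within counting error. All 3 exceed Dixon's critical value for 4 samples, which chance exceeds in about 1 of 20 groups.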

How the results depend on the processing

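The direction of Nr6a1, Tbx3, Tbx2, Tbx4, Foxf1 and Fgf10 was the same under all alternatives that were run. Tbx3 was called with the likelihood ratio test (-0.71, adjusted p = 0.00923), DESeq2 (-0.71, 0.000685), no filter (-0.71, 1.2e-05) and the replicate block (-0.78, 0.00325), and lay between -0.77 and -0.58 with single libraries left out, called only without wildtype replicate 1. The number of genes called, 203, became 401 with the likelihood ratio test, 477 with DESeq2, 876 without a filter, 442 with the replicate block and 61 to 175 with single libraries left out, lowest without either Cdx2P:Nr6a1 library. Members called were 1, 1, 4 and 1 in the same settings and 0 to 1 with a library left out. Of the limb bud genes, 1 was called with DESeq2, 4 without a filter and 1 with the replicate block, and of the ventral and lateral plate genes 2 without a filter. Called genes of the fixed marker lists, 2, became 6 with the likelihood ratio test, 7 with DESeq2, 10 without a filter, 10 with the replicate block and 0 to 2 with a library left out. Members tested were 9 with filterByExpr and 10 without a filter. The sign changed for Gata6 with the replicate block (-0.14) and, with single libraries left out, for Gata6 (-0.76 to 0.85), Hand1 (-0.20 to 0.96), Hand2 (-0.35 to 2.34), Isl1 (-0.73 to 2.42) and Pitx1 (-1.57 to 0.31). In each case the change came without Cdx2P:Nr6a1 replicate 2, except for Pitx1 without replicate 1. Without a filter the Hand2 and Isl1 calls were also lost under the block (adjusted p = 0.416 and 0.514). The causes were not tested. Whether replicate numbers pair the samples could not be decided. Deviations correlated at 0.20 for number 1 and -0.15 for number 2, but with only 2 Cdx2P:Nr6a1 libraries the deviations of one mirror those of the other. At this depth, genes with under 10 counts in wildtype, such as Isl1, have counting intervals too wide to show modest differences.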
